A study of Mus musculus with 16 samples.

Results

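The ribosomal protein genes of the cytosolic ribosome were read in the quadriceps muscle of 16 mice. Members were all genes whose symbol in the probe annotation was Rpl or Rps followed by a number, or Rplp0, Rplp1, Rplp2 or Rpsa, without the Rps6k kinases, Rps19bp1 and pseudogene symbols. This gave 71 of the 17097 genes measured, 46 named for the large subunit and 25 for the small subunit. Each was represented by its brightest probe set, and 1 array was run for each mouse. The mice formed 4 groups of 4: Mfn2 KO aged 22 months (old), control aged 22 months, Mfn2 KO aged 6 months (young) and control aged 6 months. All were kept on standard chow. The labels used here name neither the allele nor a Cre driver for the KO, and give no sex. They also give a family: every mouse of family A or B was old, every mouse of family C or D was young, and the remaining mice were labelled Other. At 22 months family was also uneven by genotype, as every mouse of family B was a control and most of family A were KO. Nothing in the labels says what the replicate numbers 1 to 4 stand for.

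The cytosolic ribosome joins a small subunit, which reads the messenger RNA, with a large subunit, which forms the peptide bonds. Its proteins are made in matching amounts from many unlinked genes, and most of their messenger RNAs start with a tract of pyrimidines (the 5′ terminal oligopyrimidine, or TOP, motif) through which mTOR signalling adjusts their translation. Muscle fibres are long-lived cells whose mass depends on the balance of protein synthesis and breakdown, and skeletal muscle is known for a ribosomal protein paralog of its own, Rpl3l, which takes the place of Rpl3 in mature fibres. Mfn2 encodes mitofusin 2, which fuses the outer membranes of mitochondria.

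Medians of the arrays over all probe sets ran from 4.58 to 4.65 (log2), but their spread followed the replicate number. In every group the SD of an array's signals was lowest in number 3 (1.70 to 1.74), followed by number 4 (1.79 to 1.81). It was 1.89 to 1.91 in number 1 arrays and 1.92 to 1.94 in number 2 arrays. Medians of the members with arrays scaled to a common SD are given below. With 4 arrays a group, precision is set by their number. The tissue label was checked on 10 muscle fibre markers, all measured, whose summed log2 level lay between 14.9 and 15.2 in every array. Mfn2 itself had log2 signals of 8.31, 8.01, 6.32 and 8.32 in old KO arrays 1 to 4 and 8.52, 8.67, 8.34 and 9.18 in old control arrays 1 to 4. It had 8.41, 8.49, 8.38 and 8.54 in young KO arrays and 8.66, 9.05, 8.03 and 9.45 in young control arrays. The genotypes did not overlap at 22 months (difference -0.94, SE 0.38) and overlapped at 6 months (-0.34, SE 0.38), and neither difference was called. Number 3 of the old KO group stood lowest, and without it the old difference was -0.46. The young difference of Mfn2 was -0.13 without young control number 4 and -0.60 without young control number 3. The labels do not say which exons the KO lacks, so whether the probe set reads the deleted part is not known. Arrays with the same replicate number resembled each other, so a fit with the number as a block was run beside the one without. All differences below are on the log2 scale of the arrays, and a call means an adjusted p under 0.05 in limma over all 17097 genes. Signals of different probe sets are not compared as levels, since each has its own response.

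Ribosomal protein transcripts were among the most even of the data. Of the 71 members 70 lay above the median probe set of the arrays, at 4.62, and 58 had a mean above 9, with Rps2 the brightest at 12.1. The exception was Rps15a, a small subunit protein, with a mean of 3.97. The SD within groups had a median of 0.068 over the members, against 0.225 over all genes and 0.124 over the 1106 other genes with a mean above 9. The widest spread was that of Rpl7l1 (0.43), a paralog of Rpl7, followed by Rpl14 (0.39), Rps19 (0.35) and Rplp1 (0.29). Of these, Rps19 is a small subunit protein whose mutation causes Diamond-Blackfan anaemia in humans. For 20 members the brightest probe set carries the suffix x, which marks probes shared with other transcripts, and ribosomal protein genes have many processed pseudogenes, so that signal from near-identical copies is included.

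The level of the whole set in each array was summarised as the median, over the 71 members, of the deviation from the member's mean. In old KO muscle this was 0.016, 0.080, 0.019 and -0.019 for numbers 1 to 4, and in old control muscle 0.031, 0.014, -0.073 and -0.031. In young KO muscle it was 0.0021, 0.0010, -0.116 and -0.011, and in young control muscle -0.0028, 0.030, 0.032 and 0.068. Groups overlapped, and 2 arrays stood low, young KO number 3 and old control number 3. Young KO number 3 was the lowest array of its group for 53 of 71 members, and old control number 3 for 44 of 71. Pyruvate carboxylase is read by control probe sets at both ends of its message, and the 3′ end minus the 5′ end, which can follow the state of the RNA, was -0.27, -0.31, 0.13 and -0.007 in young KO arrays 1 to 4 and -0.082, -0.32, 0.14 and 0.095 in old control arrays 1 to 4. It was thus highest in number 3 of both groups. It was also positive, at 0.18 and 0.066, in number 3 of the old KO and young control groups, where the ribosomal protein median was 0.019 and 0.032. Of all 16 arrays old KO number 4 had the highest value, 0.23, with a ribosomal protein median of -0.019. Young control number 4 had 0.057, with a ribosomal protein median of 0.068. In every group numbers 3 and 4 had higher values than numbers 1 and 2. The part of this end difference in the results was not tested.

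**Figure D1:**
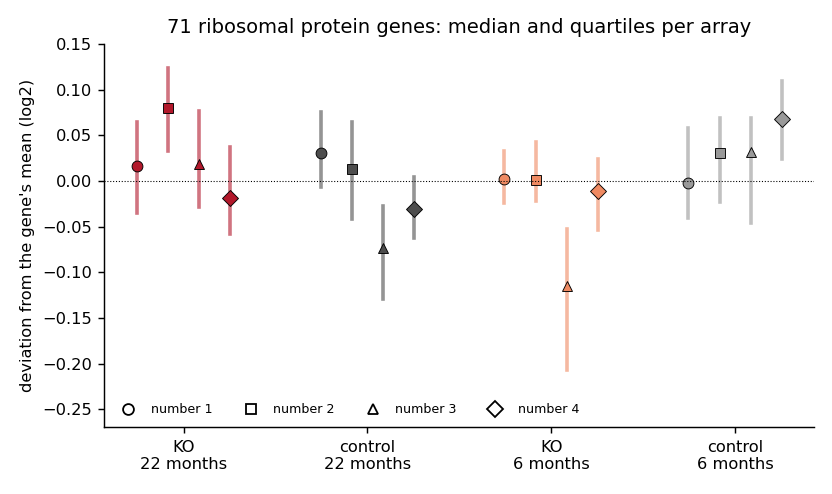
Median (symbol) and quartiles (bar) of the deviation of 71 ribosomal protein genes from each gene's mean over 16 arrays, in log2 units, for each array of old KO, old control, young KO and young control muscle, with symbol shape for the replicate number. Young KO number 3 lies lowest at -0.116 and old control number 3 next at -0.073, and the other 14 arrays lie between -0.031 and 0.080.

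The first comparison asked how ribosomal protein transcripts of KO muscle differed from those of control muscle at 6 months. Small differences ran mostly one way: 61 of 71 members (85.9%) were lower in young KO muscle, where 52.2% of all genes were lower and 47.8% higher. The median difference of the members was -0.05, a change of -3.50%, against -0.01 for all genes. It was -0.02 without young KO number 3 and -0.12 with arrays scaled to one SD. No member was called in limma, with or without the replicate block (0 of 71; 0% of all genes were called). At an unadjusted p under 0.05, 6 members were lower and 0 higher without the block (0.702% and 1% of all genes), and 12 and 0 with it (4.24% and 5.19%). These counts are descriptions of correlated transcripts. Large subunit genes (39 of 46 lower, median -0.06) and small subunit genes (22 of 25 lower, median -0.04) went the same way. Here and below, the direction of a member is that of its brightest probe set. Of 34 members with several sets, all sets shared a sign in 19 for genotype in young mice and 19 in old mice. For age they did so in 20 members in control and 15 in KO mice. Of 63 dimmer sets, between 68.3% and 74.6% had the sign of the brightest set.

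Among large subunit proteins, Rpl32 had log2 signals of 8.41, 8.40, 8.03 and 8.42 in young KO arrays 1 to 4, against 8.50, 8.53, 8.49 and 8.63 in young control arrays 1 to 4. The groups did not overlap, and number 3 of the KO group stood well below the rest (difference -0.22, SE 0.10, limma adjusted p = 1.0, or 0.429 with the block). Without that array the difference of Rpl32 was -0.13. Rpl35, a protein beside the exit of the peptide tunnel, ranged from 10.13 to 10.27 in young KO muscle and from 10.30 to 10.37 in young control muscle (difference -0.12, SE 0.04). Rpl29 differed by -0.12 (SE 0.05). Of the small subunit, Rps26, which lines the path by which messenger RNA leaves the ribosome, had 9.84, 9.90, 9.69 and 9.89 in young KO arrays, against 9.97, 9.98, 10.03 and 9.95 in young control arrays. All KO values of Rps26 lay below all control values (difference -0.15, SE 0.06), and the difference was -0.09 without the number 3 arrays of all groups. Rps18 differed by -0.19 (SE 0.09), or by -0.11 without young KO number 3. Rpl26, Rpl29, Rpl32, Rpl35, Rps18 and Rps26 were the 6 members whose young KO arrays all lay below the young control arrays, and 0 members lay above. Of all genes 0.696% lay below and 0.661% above without overlap.

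Rplp1, an acidic protein of the stalk that recruits elongation factors to the large subunit, had the largest difference among the members in young mice, -0.32 (SE 0.18). Its signals were 10.09, 10.53, 9.91 and 10.59 in young KO arrays 1 to 4 and 10.59, 10.62, 10.19 and 11.00 in young control arrays 1 to 4. It was lower in KO muscle in 4 of 4 numbers, but the groups overlapped and the spread within each (SD 0.33 in both) was as large as the difference. The difference of Rplp1 was -0.19 without young control number 4 and -0.20 without young KO number 3. The stalk proteins that bind with it did not all share this: Rplp2 differed by -0.12 (SE 0.06) and Rplp0 by -0.01 (SE 0.05). Rps6, the substrate of S6 kinase and a common readout of mTOR activity as a phosphoprotein, differed by 0.05 (SE 0.04) at the transcript level. The differences of Rplp0 and Rps6 changed sign under some settings.

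At 22 months the members leaned the other way. Of 71 members 63 (88.7%) were higher in old KO than in old control muscle, where 48.4% of all genes were higher and 51.6% lower, with a median of 0.04 against 0.00 (-0.0041) for all genes. The median was 0.02 without old control number 3, 0.03 without old KO number 2 and 0.01 with family in the fit, where 45 members were higher. No member was called in either limma fit (0 of 71; 0% of all genes), and 1 was higher and 1 lower at an unadjusted p under 0.05 without the block (0.602% and 0.538% of all genes). With the block 2 were higher and 1 lower (3.21% and 3.4%). The higher one without the block was Rps7, a small subunit protein that also binds Mdm2. It had 10.59, 10.59, 10.67 and 10.61 in old KO arrays 1 to 4 and 10.59, 10.34, 10.48 and 10.49 in old control arrays 1 to 4 (difference 0.14, SE 0.05, limma adjusted p = 1.0). The groups of Rps7 overlapped through number 1 of the controls. Rplp1 was 10.52, 10.63, 10.61 and 10.56 in old KO arrays, against 10.05, 10.13, 10.47 and 10.77 in old control arrays. The old KO values of Rplp1 lay close together within the wide range of the controls (difference 0.22, SE 0.18, or 0.12 without old control number 1 and 0.36 without old control number 4). Of the members 12 were higher in 4 of 4 numbers (6.46% of all genes), among them Rpl12, Rps2, Rps19 and Rps28. For Rps2 this holds for the brightest probe set alone (0.03), as its other sets differed by -0.0126 and -0.0171.

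The one member whose genotypes did not overlap at 22 months was among the 8 that were lower in old KO muscle. Rpl3l, the muscle paralog of Rpl3, had log2 signals of 10.87, 10.90, 10.86 and 10.92 in old KO arrays 1 to 4, against 10.94, 11.01, 11.03 and 11.07 in old control arrays 1 to 4. All old KO arrays also lay below the 8 young arrays, which ranged from 10.97 to 11.09. The difference between genotypes was -0.12 (SE 0.04, 95% interval -0.20 to -0.04; limma adjusted p = 1.0, or 0.637 with the replicate block). Of all genes 0.474% lay below the old controls without overlap. In young mice the genotypes differed in Rpl3l by -0.0023 (SE 0.04), and the interaction of -0.12 (SE 0.05) had a limma adjusted p of 1.0. With age, Rpl3l differed by -0.14 (SE 0.04) in KO muscle, with a limma adjusted p of 1.0 (0.223 with the block), and by -0.02 (SE 0.04) in control muscle, a value that changed sign with arrays left out.

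**Figure D2:**
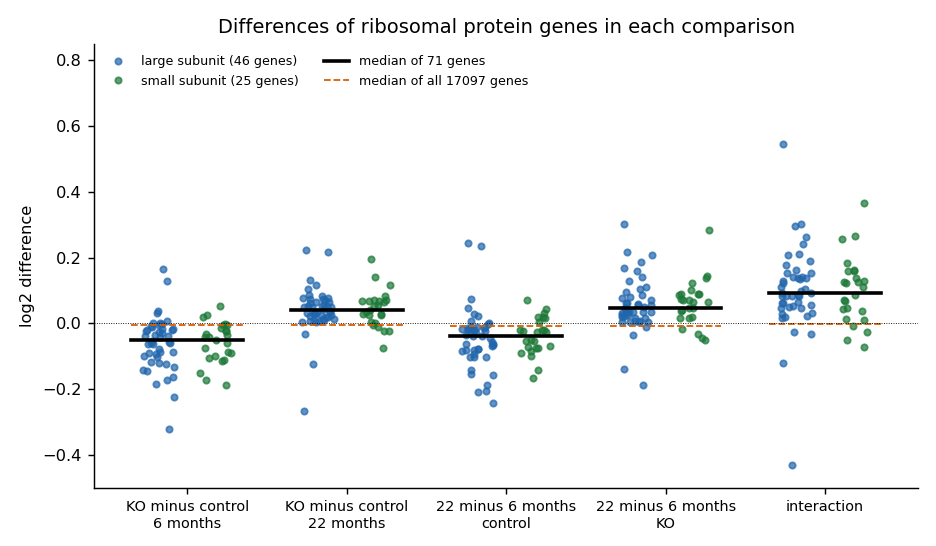
Log2 difference of each of 71 ribosomal protein genes (points; large subunit left, small subunit right of each column) for KO minus control at 6 and at 22 months, 22 minus 6 months in control and in KO muscle, and the interaction, with the median of the members (black) and of all 17097 genes (dashed). The member medians are -0.05, 0.04, -0.04, 0.05 and 0.09 from left to right, and 0 members were called in any of them.

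Age was compared next, within each genotype. In control muscle 56 of 71 members (78.9%) were lower at 22 than at 6 months, where 53.1% of all genes were lower and 46.9% higher, with a median of -0.04 against -0.01 for all genes. In KO muscle 63 of 71 (88.7%) were higher at 22 months, where 47.1% of all genes were higher, with a median of 0.05 against -0.01. With arrays scaled to one SD these medians were -0.08 in control and 0.09 in KO muscle, and without old control number 3 that in control muscle was -0.02. No member was called for age in control mice (0 of 71; 0% of all genes, or 0.0468% with the block, of which 0.0409% higher) or in KO mice (0 of 71; 0.0175%, or 0.0234% with the block). At an unadjusted p under 0.05, 5 members were lower and 0 higher with age in control mice (0.936% and 1.19% of all genes), and 6 were higher and 1 lower in KO mice (1.34% and 1.25%). With the block these counts were 6 and 0 in control mice (4.98% and 4.66%) and 9 and 1 in KO mice (4.36% and 5.88%). These comparisons share their groups with those of genotype, so the 4 medians are not independent.

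In control muscle the values at 22 months lay below all values at 6 months for Rpl13, Rpl29, Rpl32 and Rpsa (0.772% of all genes), and for 0 members above (0.749%). Rpl29 had 10.19, 10.22, 10.09 and 10.12 in old control arrays and 10.25, 10.32, 10.40 and 10.29 in young control arrays, a difference of -0.16 (SE 0.05, limma adjusted p = 1.0, or 0.344 with the block). Rpl13 differed by -0.19 (SE 0.08) and Rpsa, a small subunit protein first known as a laminin receptor, by -0.07 (SE 0.03). In KO muscle the old arrays lay above all young ones for Rpl12, Rpl13a, Rps7, Rps25 and Rps26 (0.924% of all genes), and below for Rpl3l (0.871%).

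Rpl13a, a large subunit protein that in human cells is released from the ribosome under interferon to block translation of inflammatory messages, had 10.48, 10.41, 10.36 and 10.29 in old KO arrays 1 to 4. In young KO arrays 1 to 4 it had 10.18, 10.27, 10.04 and 10.19. The groups did not overlap, and the difference of 0.22 (SE 0.06) had a limma adjusted p of 1.0 (0.224 with the block). Over both genotypes Rpl13a differed by 0.15 (SE 0.05) between 22 and 6 months with the old array above the young one of its genotype and number 8 times out of 8, but it was not called (limma adjusted p = 0.740, or 0.146 with the block). Rpl12, which forms the base of the stalk, had 9.96, 10.07, 9.90 and 9.88 in old KO arrays and 9.86, 9.85, 9.54 and 9.82 in young KO arrays (difference 0.19, SE 0.07). Its young KO value of number 3 stood apart, and without that array the difference was 0.11. Rps25, a small subunit protein needed for initiation at some internal ribosome entry sites, differed by 0.14 (SE 0.05).

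**Figure D3:**
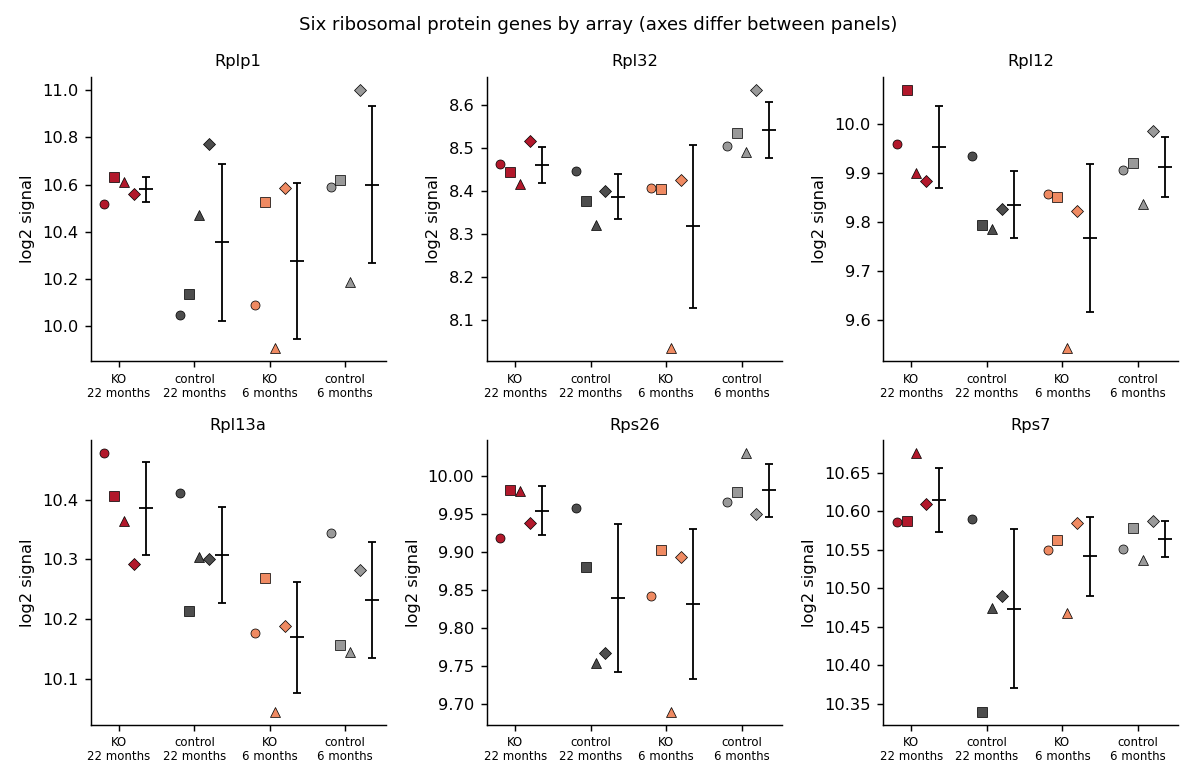
Log2 signal of Rplp1, Rpl32, Rpl12, Rpl13a, Rps26 and Rps7 in each array of old KO, old control, young KO and young control muscle, with symbols for the replicate number as in the plot of array medians and bars for mean ± SD (n = 4). Young KO number 3 (triangle) is the lowest of its group in all 6 panels, and the vertical axes differ and do not start at 0.

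The interaction asked whether age went with a different shift in KO than in control muscle. It was above 0 for 63 of 71 members, against 49.7% of all genes, with a median of 0.09 against 0.00 (-0.0013) for all genes, or 0.17 with arrays scaled to one SD. No member passed (0 of 71; 0% of all genes). At an unadjusted p under 0.05, 10 members were above and 1 below 0 without the block (0.608% and 0.526% of all genes), and 14 and 2 with it (3.48% and 3.76%). It was 0.26 for Rps26 (SE 0.09, limma adjusted p = 1.0) and 0.26 for Rpl12 (SE 0.10). The largest value was that of Rplp1 (0.55, SE 0.26), and the lowest that of Rpl7l1 (-0.43, SE 0.40), whose 3 probe sets did not share a sign in either genotype comparison. Old KO number 3 had a Rpl7l1 signal of 6.18, against 7.05 to 7.67 in the other old KO arrays, and without it the interaction of Rpl7l1 was -0.12.

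The size of these shifts depended on the replicate number. The median over the members for KO minus control at 6 months was 0.0058, -0.016, -0.132 and -0.082 for numbers 1 to 4. At 22 months it was -0.0033, 0.048, 0.092 and 0.020. For age it was 0.032, -0.0092, -0.095 and -0.097 in control muscle and 0.0090, 0.069, 0.150 and 0.015 in KO muscle. Number 3 thus gave the largest shift in 3 of these 4 comparisons, and in age within control muscle it was close to that of number 4. Number 1 arrays differed by less than 0.01 in both genotype comparisons. Without young KO number 3 the young genotype median was -0.02, with 22 members higher, the median for age in KO muscle 0.02 and the interaction median 0.07. Without that array and old control number 3, which was chosen once the values were known, the genotype medians were -0.02 in young and 0.02 in old mice, and the age medians were -0.02 in control and 0.02 in KO muscle. The interaction median was then 0.04, with 49 members above 0. All 5 medians kept their sign and were smaller.

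**Figure D4:**
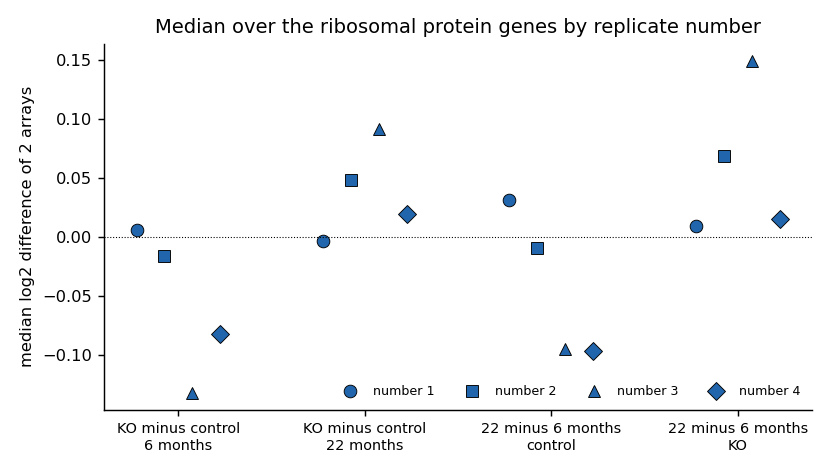
Median over 71 ribosomal protein genes of the log2 difference between the 2 arrays that share a replicate number, for KO minus control at 6 and at 22 months and for 22 minus 6 months in control and in KO muscle. Number 3 reaches -0.132 for genotype at 6 months and 0.150 for age in KO muscle, while the values of number 1 lie between -0.0033 and 0.032.

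Marker levels of some other cell types are given as ranges, without a test. Most ranges overlapped between groups. Fibroblast markers were lower in both old groups (highest value 11.78) than in both young groups (lowest value 11.81), and overlapped between genotypes at each age. The summed level of 6 fibroblast markers, all measured, lay between 11.4 and 11.8 in old KO, 11.3 and 11.6 in old control, 11.8 and 12.4 in young KO and 11.8 and 12.2 in young control muscle. That of 10 macrophage markers, all measured, lay between 9.70 and 10.4 in old KO, 9.48 and 10.5 in old control, 9.01 and 10.04 in young KO and 9.12 and 9.55 in young control muscle. Adipocyte markers, of which 3 of 5 were measured, lay between 11.0 and 11.4, 11.1 and 11.5, 11.0 and 11.2, and 11.1 and 11.5 in the same groups. Their part in the ribosomal protein differences was not tested. In bulk muscle, fewer cells of a type and less RNA per cell cannot be told apart.

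With both ages or both genotypes in one contrast the medians were near 0. Over both ages 45 of 71 members were lower in KO muscle, where 52.9% of all genes were lower (median -0.01), and over both genotypes 38 of 71 were higher in old muscle, where 45.5% of all genes were higher (median 0.0048). No member was called for genotype (0 of 71; 0% of all genes) or for age (0 of 71; 0.0585%, or 0.579% with the block). At an unadjusted p under 0.05, 0 members were higher and 2 lower for genotype (0.842% and 0.708% of all genes). These were Rpl35 (-0.08, SE 0.03) and Rpl3l (-0.06, SE 0.03). Of the 4 probe sets of Rpl35 only the brightest was lower in old KO muscle (-0.03, against 0.0089, 0.02 and 0.10). All were lower in young KO muscle, by -0.16 to -0.11. For age 3 members were higher and 3 lower (1.86% and 1.66%). The higher were Rpl3, Rpl13a and Rps6, and the lower Rpl29, Rpl3l and Rpsa. Rps6 differed by 0.06 (SE 0.03) with age.

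How large a difference could have been missed is given by the 95% intervals of single genes, not adjusted for their number. For genotype the interval lay within a 1.5-fold change either way for 67 of 71 members in young mice and 67 of 71 in old mice, against 74.3% and 75.7% of all genes. The 4 exceptions at both ages were Rpl7l1, Rpl14, Rplp1 and Rps19. For age it did so for 68 of 71 in control and 68 of 71 in KO mice (74.0% and 73.4% of all genes). Within a 1.25-fold change lay the genotype intervals of 60 members at 6 months and 61 at 22 months. For age these were 58 in control and 57 in KO muscle. The share of all genes within this bound is not given here, so these counts describe the members alone.

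The paralog pairs were read apart, since Rpl3l can take the place of Rpl3 in the ribosome. Whether the other paralogs replace their partners there was not tested. Of 7 pairs listed, 5 had both partners measured: Rpl3l and Rpl3, Rpl22l1 and Rpl22, Rpl39l and Rpl39, Rpl7l1 and Rpl7, and Rpl36al and Rpl36a. Rpl3, the form found in most tissues, had log2 signals of 9.79, 9.84, 9.98 and 9.60 in old KO arrays 1 to 4 and 9.94, 9.76, 9.65 and 9.43 in old control arrays 1 to 4. It had 9.64, 9.69, 9.21 and 9.82 in young KO arrays and 9.33, 9.56, 9.31 and 9.65 in young control arrays. The groups overlapped. Rpl3 was higher at 22 months by 0.21 in KO (SE 0.14) and by 0.23 in control muscle (SE 0.14), and over both genotypes by 0.22 (SE 0.10, limma adjusted p = 1.0). The difference in KO muscle was 0.08 without young KO number 3, and that in control muscle 0.15 without old control number 1. With family in the fit the age difference over both genotypes turned to -0.12. Families A to D each held mice of a single age, so that fit links the ages only through the mice labelled Other.

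Rpl3l minus Rpl3 was 1.09 ± 0.18 in old KO, 1.31 ± 0.27 in old control, 1.43 ± 0.27 in young KO and 1.57 ± 0.18 in young control muscle (mean difference of log2 signals, SD, n = 4 each). Old minus young was -0.35 in KO and -0.25 in control muscle. Over both genotypes the difference was -0.30, 1.20 ± 0.24 in old against 1.50 ± 0.22 in young mice (SD, n = 8 each), with an exact two-sided permutation p of 0.0239, or 0.0309 with labels permuted within replicate number. After Benjamini-Hochberg adjustment over the 30 tests of 5 pairs in 6 comparisons the exact p was 0.718 (0.463 within numbers), so the difference did not pass. Young KO number 3 stood apart from its group at 1.83, against 1.27 to 1.35 in the other young KO arrays. Without it the age difference in KO muscle was -0.21, and without old control number 1 that in control muscle was -0.15. For Rpl3l minus Rpl3 the exact permutation p was 0.0857 for age in KO and 0.143 in control muscle, and 0.257 for genotype at 22 months and 0.429 at 6 months, where 4 against 4 mice cannot go below 0.0286.

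**Figure D5:**
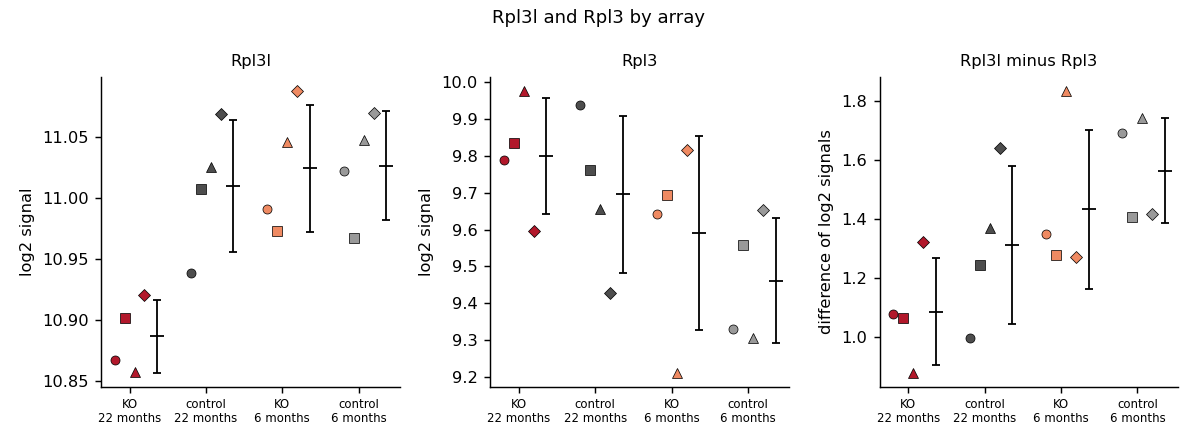
Log2 signal of Rpl3l and of Rpl3, and their difference, in each array of old KO, old control, young KO and young control muscle, with symbols for the replicate number as in the plot of array medians and bars for mean ± SD (n = 4). The 4 old KO arrays hold the lowest Rpl3l signals, between 10.86 and 10.92, and vertical axes do not start at 0.

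The other pairs gave no difference that passed. Rpl22l1, which in mice is controlled by Rpl22, minus Rpl22 differed by no more than 0.15 in any comparison, with exact permutation p values of at least 0.257. That bound rests on the brightest probe set of Rpl22. A dimmer set of Rpl22 had the opposite sign for genotype at each age and for age in each genotype. With age in control muscle the dimmer set differed by 0.36, against -0.14 for the brightest. Rpl39l, a form best known from testis, had a mean signal of 4.88, near the median probe set, and Rpl39l minus Rpl39 differed with age by -0.18 over both genotypes (exact permutation p = 0.154, or 0.0108 within numbers, 0.324 adjusted). Rpl39l alone was higher in old KO than in old control muscle by 0.22 (SE 0.14), or by 0.12 without old KO number 3. Rpl36al minus Rpl36a differed by at most 0.13, and Rpl7l1 minus Rpl7 by -0.33 between genotypes at 22 months (exact permutation p = 0.429). That value was -0.04 without old KO number 3, the array in which Rpl7l1 stood low, and -0.10 with the mean of probe sets. Rps27l, a p53 target, was measured without its partner Rps27 and differed by 0.04 (SE 0.08) with age over both genotypes, with no settled sign when arrays were left out.

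Promoters were read because the members leaned together. RefSeq (GRCm38.p6) windows from 250 bases before to 50 after the start were at hand for 57 of the 71 members, as 68 windows. The letters CTTTC, a short run of pyrimidines of the kind that opens a TOP message, on the strand of the gene within 20 bases of the start, were found in 22.1% of member windows and in 5.49% of all 32851 windows. CCGGAAG, the core bound by ETS factors such as GABP, on either strand anywhere in the 300 bases, was found in 38.2% and 8.86%. The motifs can share an end base. The 60 bases around the start (30 on each side) are given for Rpl35 and Rps26, lower in young KO arrays without overlap, Rpl13a, higher in old KO than young KO arrays, Rps7, higher in old KO muscle, and Rpl3l, lower in old KO arrays without overlap, with the motifs in capitals. CTTTC is marked within 20 bases of the start on the strand shown, and CCGGAAG as itself or as its reverse complement, which in Rpl35 and Rps26 lies outside the bases shown. Rps18, also lower in young KO arrays without overlap, is not shown. It has CCGGAAG in its 300 bases but no CTTTC within 20 bases of the start. Rpl3l has neither motif in these windows, which is a statement on these letters alone.
Rpl35, chr2:39005102-39005161, minus strand: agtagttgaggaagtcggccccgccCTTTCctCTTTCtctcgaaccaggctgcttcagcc
Rps26, chr10:128626477-128626536, minus strand: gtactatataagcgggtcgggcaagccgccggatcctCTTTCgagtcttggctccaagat
Rpl13a, chr7:45128716-45128775, minus strand: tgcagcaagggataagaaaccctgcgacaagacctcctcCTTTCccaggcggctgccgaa
Rps7, chr12:28635924-28635983, minus strand: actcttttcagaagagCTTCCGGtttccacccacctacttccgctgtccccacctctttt
Rpl3l, chr17:24727796-24727855, plus strand: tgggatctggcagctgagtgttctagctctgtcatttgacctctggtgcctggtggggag

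Genes that build or use the ribosome were read beside its proteins. Fau, whose product is cleaved into a ubiquitin-like peptide and the small subunit protein eS30, differed by -0.10 (SE 0.08) for genotype in young and by 0.06 (SE 0.08) in old mice, and by 0.15 (SE 0.08) with age in KO muscle, but the last 2 values turned negative with family in the fit. That fit links the ages only through the mice labelled Other. Without young KO number 3 the young genotype value of Fau was -0.04 and the age value in KO muscle 0.08. The old genotype value of Fau lay between 0.03 and 0.12 when single arrays were left out. Of 36 ribosome biogenesis genes measured, which process ribosomal RNA and assemble the subunits, 18 were lower in young KO muscle (median 0.00) and 15 were higher in old KO muscle (median -0.02). Of 13 RNA polymerase I genes, which transcribe ribosomal RNA, 6 were lower in young KO muscle (median 0.03) and 6 higher in old KO muscle (median -0.01). Elongation factors and other genes with TOP messages were lower in 4 of 14 measured in young KO muscle (median 0.04), and 24 initiation factors split 12 to 12 (median 0.00). In old KO muscle 7 of these 14 were higher and 7 lower (median 0.0028), and of the initiation factors 10 were higher and 14 lower (median -0.02). In these 5 lists 0 genes were called in any of the 7 comparisons in either limma fit. At an unadjusted p under 0.05 without the block, each list held between 0 and 2 genes in any comparison, and with the block between 0 and 5. The 5 were biogenesis genes for genotype over both ages, where 4.47% of all genes were higher and 4% lower by that rule. Pabpc4, a poly(A)-binding protein with a TOP message, had 9.98, 9.81, 9.83 and 9.92 in old KO arrays, 10.01, 9.90, 9.73 and 9.94 in old control arrays, between 9.97 and 10.02 in young KO arrays and 10.15, 10.13, 10.17 and 10.13 in young control arrays. Its age difference over both genotypes was -0.18 (SE 0.04, limma adjusted p = 0.244, or 0.0502 with the block). With the block and the mean of its probe sets Pabpc4 was called (difference -0.20). All 4 old control values of Pabpc4 lay below all young control values.

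Of 19 measured genes of mTOR and S6 kinase signalling, 0 were called without the block and 1 with it (0.0585% and 0.579% of all genes for age over both genotypes). This was Sesn1, which restrains mTOR complex 1 and was higher with age over both genotypes by 0.72 (SE 0.10 and limma adjusted p = 0.00526 with the block, adjusted p = 1.0 without). Sesn2, which acts alike, differed by -0.44 (SE 0.14) between young KO and young control muscle and by 0.36 (SE 0.14) with age in KO muscle, without a call. Of 4 measured genes of the p53 response, which unbound ribosomal proteins such as Rpl11 can set off through Mdm2, 0 were called in limma, and 2 had an unadjusted p under 0.05 for age over both genotypes (1.86% of all genes higher and 1.66% lower). Cdkn1a, an inhibitor of the cell cycle, differed by 0.93 (SE 0.29) with age over both genotypes (limma adjusted p = 0.737, or 0.143 with the block).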

How the data were processed

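RNA of 16 quadriceps samples was amplified from 25 ng and hybridised to Affymetrix mouse arrays, per the labels. What the authors deposited is 1 log2 signal for each probe set and array, and the submitters' processing notes name RMA and affy (versions not given in the sources used here). RMA quantile-normalises arrays, so a shift shared by all transcripts would not be seen. Of 45037 probe sets besides 104 controls, 28898 had 1 gene symbol, 551 several and 15588 none. The brightest probe set stood for a gene, with no filter on level.

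Groups were compared with limma 3.58.1 (R 4.3.3) on all 16 arrays, 1 mean per group, with a trend on the mean level and Benjamini-Hochberg adjustment over all genes, and with exact permutation tests for paralog pairs. Coordinates and promoter sequences are RefSeq's (GRCm38.p6), since the arrays' files name no build. Data of 17097 genes were simulated for genotype in young mice. Of 50 genes changed by 1, 31 were recovered, or 44 with the block. Of 50 changed by 0.5, 7 were recovered, or 19 with the block. Of 50 changed by 0.25, 0 were recovered, or 2 with the block. The block also called 7 unchanged genes. Changed genes were drawn from all genes, which spread more within groups than most members. Simulated noise was the shift of the replicate number plus each gene's spread scaled down, so recovery in the data may differ. The labels' replicate numbers paired the arrays: deviations from the group means correlated at 0.289 to 0.780 over all genes in the 24 pairs of same-numbered arrays from different groups, against a median of -0.455 for other pairs. Since group means were subtracted, other pairs turn negative where same-numbered pairs correlate, so the gap between these values is partly built in. What the number marks is not stated. Whether mice were littermates beyond the family label is not stated, so p-values measure the spread between these samples.

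Members, lists and tests were chosen with earlier results of these data known. The rule for named genes admitted all members, with the 4 largest differences in each direction, paralogs, and Rps6, Rplp0, Rplp1, Rplp2 and Rpsa per comparison, and the genes described are a selection made after their values were seen. Of the other lists, called genes and the 2 with the smallest p were admitted, with Fau. Alternatives were the replicate block, other probe set rules, scalings, a filter on dim genes, family, array weights and leaving out arrays. The 5 that combine the block with another choice or leave out chosen arrays were added after seeing the data.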

Additional observations from a re-analysis of the deposited data

Results flagged for a closer look

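Among 112 tested sets of 4 arrays (28 quantities in 4 groups), 10 held 1 array far from the other 3, where chance flags about 5% of sets. Young KO number 3 gave 5 of them. The median deviation of the ribosomal proteins was -0.116 there, against -0.011 to 0.0021 in the other young KO arrays. Rpl32 stood at 8.03, against 8.40 to 8.42 in the other arrays of its group. Rpl12 stood at 9.54, against 9.82 to 9.86. Rpl3l minus Rpl3 stood at 1.83, against 1.27 to 1.35, and Sesn1 at 5.93, against 6.92 to 7.01. These quantities come from the same array and are not independent. Mfn2 stood at 6.32 in old KO number 3, against 8.01 to 8.32 in the other old KO arrays. Fau stood at 9.36 in old KO number 4, against 9.59 to 9.61, and at 9.49 in young control number 2, against 9.51 in the others. Rps27l stood at 8.47 in young control number 4, against 8.74 to 8.76. Sesn2 stood at 5.83 in old KO number 1, against 5.45 to 5.50.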

How the results depend on the processing

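The count of called members was 0 in all 7 comparisons under each of the 50 alternatives. Moves of the medians were judged against a bound of 0.0445, the SD of array medians within groups. For genotype the medians themselves were -0.0514 in young and 0.0407 in old mice. For age they were -0.0375 in control and 0.0483 in KO muscle. The bound is close to these in size, so a median could lose most of its value and not count as moved. The young genotype median went to -0.021 without young KO number 3 and did not count. Of the alternative medians 342 of 350 moved by less than the bound, which does not show that they are stable. Those that moved more were the young genotype median, at -0.121 with arrays scaled to one SD, and the interaction median, at 0.166 with that scaling, 0.034 with array weights, 0.047 without number 3 arrays (each scaling and number 3 value being the same with the replicate block) and 0.039 without young KO number 3 and old control number 3. The cause was not tested. Leaving out arrays gave interaction medians from 0.039 to 0.129. The median for genotype over both ages ranged from -0.023 to 0.0082 and that for age over both genotypes from -0.012 to 0.015, so neither has a settled sign. With all arrays the replicate block left the interaction median at 0.093, as it does every difference in this balanced design, and changed no call of a member. Of the alternative values of single genes 2296 kept their sign and side of the threshold, 31 reversed and 22 passed the threshold where the value given did not. With family in the fit Rpl3 for age was -0.034 in control, -0.205 in KO and -0.120 over both, Fau was -0.013 for KO minus control at 22 months and -0.021 for age in KO muscle, and Rpl3l for genotype in young mice was 0.0078. The age values with family link the ages only through the mice labelled Other. The young genotype difference of Rps6 was -0.028 with arrays scaled to one SD, with or without the block. That of Rplp0 was 0.053 with array weights, ranged from -0.057 to 0.043 with arrays left out, and with the block was 0.050 without young control number 4, 0.021 without young KO number 2 and 0.0031 without young KO number 4. That of Rpl3l was 0.0010 with arrays centred, ranged from -0.023 to 0.015 with arrays left out, and with the block was 0.010 without young control number 1, 0.0040 without young control number 3 and 0.0095 without young KO number 2. Rpl3l for age in control mice ranged from -0.037 to 0.0071, and was 0.0007 with the block without old control number 1. Rps27l for age ranged from -0.013 to 0.120, and was -0.0008 with the block without young control number 4. Sesn1 for age was called in every fit with the block that left out 1 array (0.65 to 0.79), and Pabpc4 for age with the block and the mean of probe sets (-0.20) or a set without suffix x (-0.21). The 120 alternative values of Rpl3l minus Rpl3, of Rpl7l1 minus Rpl7 for genotype at 22 months and of Rpl39l minus Rpl39 for age over both genotypes kept their sign, with Rpl7l1 minus Rpl7 ranging from -0.48 to -0.04 and Rpl39l minus Rpl39 from -0.25 to -0.14 with arrays left out. Permuting within numbers and centring arrays cannot change a paralog difference. Rpl3l and Rpl3 have 1 probe set each, so for that pair only leaving out arrays could. Family, scaling to one SD and array weights were not run on the pairs. The kept signs therefore do not show that the pair differences are stable. Signal over background limits Rps15a, Rpl14 and Rpl39l, which lie near or below the median probe set.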
